A study of Mus musculus with 18 samples.

Results

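This account describes 10 genes of the ATF4 and amino acid stress response in mouse macrophages: Atf4, Ddit3, Trib3, Asns, Psat1, Phgdh, Mthfd2, Slc3a2, Cth and Ddit4. They were listed by gene symbol, and all 10 were measured, by 19 probe sets, among 12393 genes on the array. The cells were macrophages grown from the marrow of C57BL/6 mice in medium conditioned by L929 cells, a fibroblast line that secretes macrophage growth factor, and their RNA was read on Affymetrix arrays in 6 groups of 3. SPIO-LPS cultures stood for 24 h with 33 nm iron oxide particles (SPIO), were washed, and then received fresh medium with 10 ng/ml lipopolysaccharide (LPS), a bacterial cell wall component, for 4 h. Silica-LPS cultures were handled alike with 50 nm amorphous silica, and LPS cultures had plain medium before LPS. SPIO and Silica cultures had the particle for 24 h and then control medium for 4 h, and CON cultures had medium alone. The study's description gives both particles at 25 mg/ml, a unit that could not be checked here. Whether replicate cultures came from different mice is not given, and every p-value therefore reflects culture-to-culture spread, which may be technical.

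ATF4 is a transcription factor whose translation rises when kinases that sense missing amino acids, misfolded protein, heme lack or viral RNA phosphorylate the initiation factor eIF2. Because that control acts on translation, the level of Atf4 mRNA need not follow ATF4 protein. ATF4 drives genes for amino acid import and synthesis, for charging of tRNA and for the feedback and death arms of the response. In macrophages the same genes meet the demands of LPS activation, such as cystine uptake for glutathione and serine for one-carbon units.

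The ATF4 partner complex binds a composite element whose core letters are TGATGNAA. Promoter windows of 250 bases before to 50 bases after the transcription start were searched on both strands in RefSeq sequence of GRCm38.p6. Windows were given for 9 of the 10 genes, Cth being without one, and 2 genes held the core, against 3.97% of 32851 windows in all. The Asns window held it in the orientation of the gene, starting 23 bases before the first transcribed base. In Trib3 the core lay on the other strand, from transcribed base 15 on. The stretches of 30 bases around these matches are shown because Trib3 was called higher and Asns lower in SPIO against CON below. Each call held at the brightest probe set only, and that of Asns depended on single arrays. Capitals mark the core:
Asns, minus strand, chr6:7693214-7693243: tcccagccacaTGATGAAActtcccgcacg
Trib3, minus strand, chr2:152344028-152344057: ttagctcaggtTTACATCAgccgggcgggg
A match describes these letters and is no measurement of ATF4 binding.

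Values are log2 signals after the authors' RMA processing, and differences are log2 differences with the standard error (SE) of a limma model over all 18 arrays. A gene counted as called at a Benjamini-Hochberg adjusted p below 0.05 over all genes. Array medians lay between 6.22 and 6.43, and arrays of 1 group correlated at 0.997 to 0.999. All 9 measured macrophage markers stood above 7 on the log2 scale in every group, the lowest being Mertk at 7.35 in Silica-LPS. As a measure of RNA quality, the difference between the 3′ and 5′ Gapdh control probe sets was 0.47 ± 0.026 in SPIO (SD, n = 3), 0.56 ± 0.02 in Silica and 0.69 ± 0.039 in CON. The Actb difference ran the other way, at 0.66 ± 0.015 in SPIO, 0.62 ± 0.018 in Silica and 0.59 ± 0.017 in CON. With LPS the Gapdh difference was 0.4 ± 0.064 in SPIO-LPS, 0.43 ± 0.046 in Silica-LPS and 0.52 ± 0.05 in LPS. The Actb difference was 0.52 ± 0.014 in SPIO-LPS, 0.44 ± 0.026 in Silica-LPS and 0.38 ± 0.053 in LPS, so that both were lower in LPS than in CON.

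**Figure D1:**
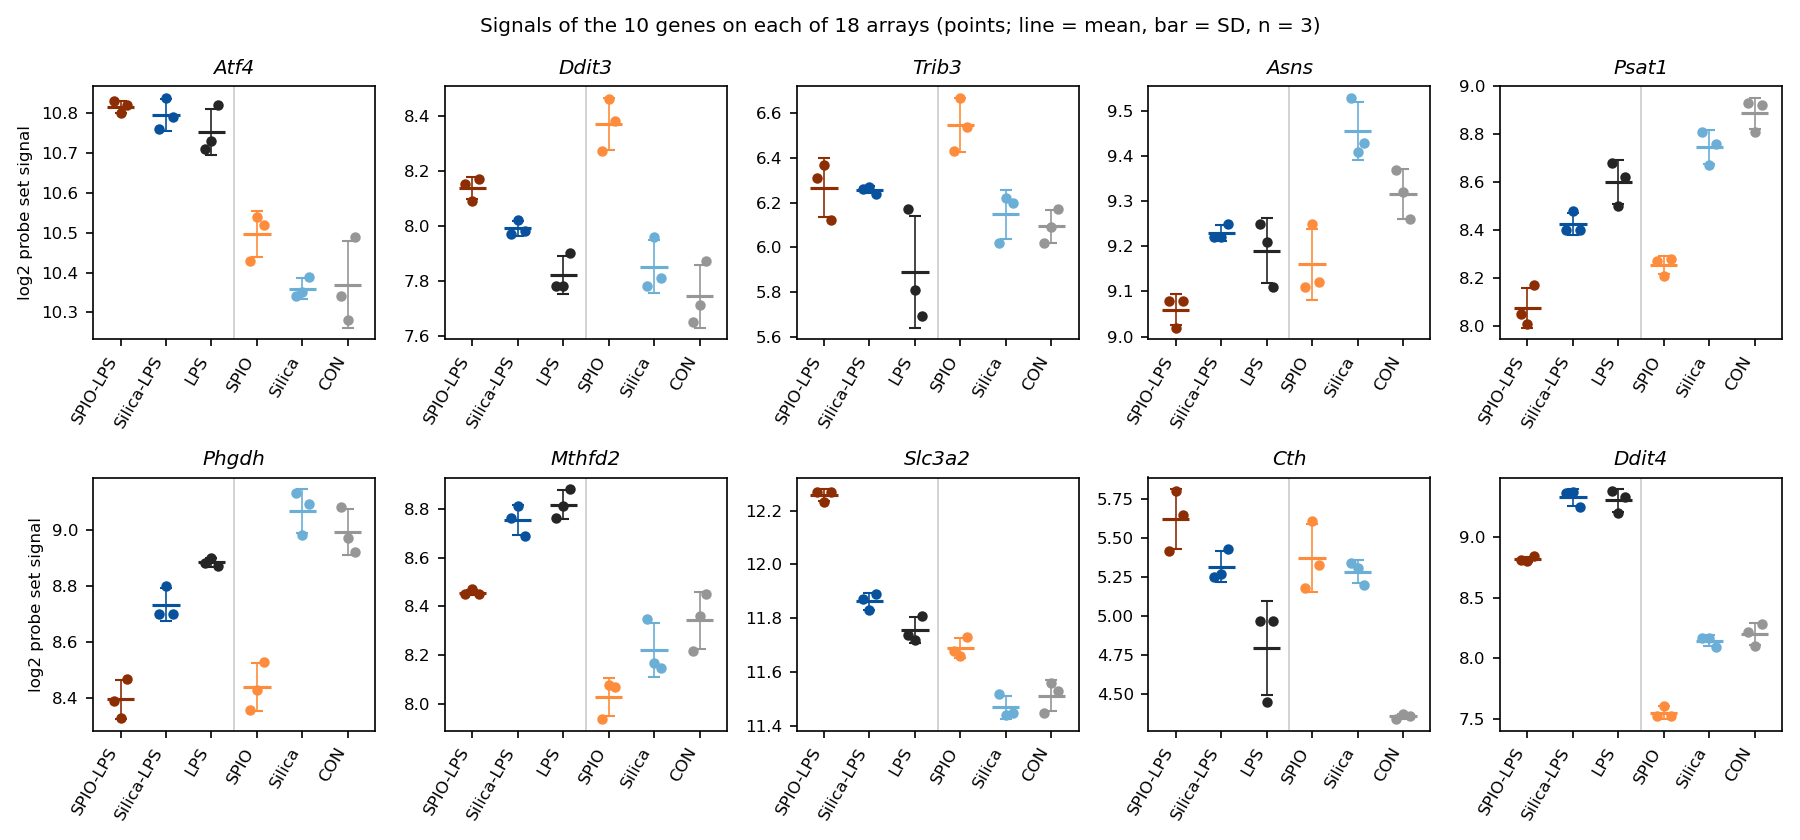
Log2 signals of the brightest probe set of each gene on every array, with group means and SDs (n = 3); the y axes differ between genes. Psat1 and Phgdh were lowest in the SPIO and SPIO-LPS groups, Ddit4 was highest in the Silica-LPS and LPS groups, and Cth was lowest in CON.

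The comparison of SPIO with CON asks what iron oxide did in the absence of LPS. Iron oxide split the group. The stress regulators Ddit3 and Trib3 and the cysteine-related genes Cth and Slc3a2 rose. The serine pathway genes Psat1 and Phgdh, Asns, Ddit4 and the folate enzyme gene Mthfd2 fell. Trib3, Asns and Mthfd2 were each called at only 1 of their probe sets. Atf4 itself was not called. In all, 9 of 10 genes were called, beside 33.8% of all genes: 4 rose, beside 19.6%, and 5 fell, beside 14.2%. These genes and the lists below were chosen with earlier results of these data known. Such shares, here and below, therefore describe the lists and do not test them. The median difference of the 10 genes was -0.02, beside -0.01 over all genes. In whole cultures, fewer cells of a type and less RNA per cell cannot be told apart.

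Markers of other cells also moved with iron oxide. Of all genes, 19.6% rose and 14.2% fell in SPIO against CON, and 18.2% rose and 14.6% fell in SPIO-LPS against LPS. Of 12 fibroblast and stroma markers 7 fell in SPIO against CON, with a summed linear signal of 34841 to 35882 in SPIO, against 41592 to 42224 in CON. With LPS, 8 of them fell in SPIO-LPS against LPS, with sums of 27859 to 28711 in SPIO-LPS, against 33740 to 35257 in LPS. In every group 2 of the 12 stood below 5 on the log2 scale, Lum being the lowest. Of 9 neutrophil markers 7 fell and 1 rose in SPIO against CON, with sums of 15509 to 16079 in SPIO, against 21421 to 22791 in CON. With LPS, 6 fell and 1 rose, with sums of 15296 to 15652 in SPIO-LPS, against 20311 to 20811 in LPS. Macrophage markers fell in 6 of 9 cases and rose in 2 in SPIO against CON, with sums of 54360 to 54962 in SPIO, against 57117 to 57810 in CON. Dendritic cell, B cell, and T and NK cell markers summed to at most 249 in any array. The part of these cells, and of the RNA quality values above, in the results was not tested.

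Among the regulators, Ddit3, which encodes the transcription factor CHOP of the death arm, gave signals of 8.27, 8.46 and 8.38 in SPIO, against 7.65, 7.71 and 7.87 in CON. The groups did not overlap, and the difference was 0.63 ± 0.066, or 1.55-fold (adjusted p = 1.89e-06). Trib3, a pseudokinase that binds ATF4 and CHOP and restrains them, stood at 6.43, 6.67 and 6.54 in SPIO, against 6.02, 6.09 and 6.17 in CON. It rose by 0.45 ± 0.1 (adjusted p = 0.00315), but its dimmer probe set gave 0.19 ± 0.091 and was not called. Atf4 had 10.43, 10.54 and 10.52 in SPIO, against 10.34, 10.28 and 10.49 in CON. These ranges overlapped, with a difference of 0.12 ± 0.053 (adjusted p = 0.0905, 95% interval 0.01 to 0.24), which was called with a variance trend (adjusted p = 0.0303) and without CON replicate 3 (0.18, adjusted p = 0.011). Its second and its dimmest probe set gave 0.04 ± 0.13 and -0.06 ± 0.11, neither called.

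Psat1 and Phgdh fell at every probe set. Psat1, the aminotransferase of serine synthesis, had 8.27, 8.21 and 8.28 in SPIO, against 8.93, 8.81 and 8.92 in CON. Its fall of 0.64 ± 0.058 on the log2 scale, 1.55-fold (adjusted p = 5.01e-07), stood beside a fall of 0.58 ± 0.091 at its second probe set. Phgdh, the dehydrogenase that opens the serine pathway, gave 8.36, 8.43 and 8.53 in SPIO, against 9.08, 8.97 and 8.92 in CON. It fell by 0.55 ± 0.059 (adjusted p = 2.77e-06), and its other 3 probe sets gave -0.53, -0.35 and -0.42, all called. All 4 Phgdh probe sets carry the suffix by which the manufacturer marks probes that may match other transcripts. The brightest probe sets of Trib3 and Asns and the second of Atf4 carry it too. The dimmer probe sets of Trib3 and Asns do not, and neither was called in SPIO against CON. A further 2 probe sets that the annotation assigns to Phgdh together with Gm8096 or Gm6756 gave -0.45 ± 0.099 and -0.61 ± 0.044.

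Asns, the asparagine synthetase gene and a standard ATF4 target, had 9.11, 9.25 and 9.12 in SPIO, against 9.37, 9.32 and 9.26 in CON. This fall, though without overlap, was small at 0.16 ± 0.053 (adjusted p = 0.0301), and it was not called without CON replicate 1 or 2 or SPIO replicate 1 or 3, where the differences were -0.13 to -0.16. Its second probe set gave -0.11 ± 0.044, not called. Mthfd2, the mitochondrial folate enzyme, differed between its probe sets. The brighter gave 7.94, 8.08 and 8.07 in SPIO, against 8.22, 8.36 and 8.45 in CON, a fall of 0.31 ± 0.066 (adjusted p = 0.00163). The dimmer gave 7.6, 7.6 and 7.71 in SPIO, against 7.59, 7.45 and 7.6 in CON, a difference of 0.09 ± 0.054 that was not called (adjusted p = 0.225). The direction of Mthfd2 after iron oxide thus depended on the probe set, and their mean gave -0.11 (adjusted p = 0.0763).

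Of the import and cysteine genes, Cth, whose enzyme cystathionine gamma-lyase makes cysteine from cystathionine, had 5.18, 5.61 and 5.33 in SPIO, against 4.34, 4.37 and 4.36 in CON. The groups did not overlap, with a difference of 1.02 ± 0.13 (adjusted p = 2.12e-05). Cth lies among the dimmest 33.3% of genes by mean signal and below 5 on every CON and LPS array. Without detection calls these data do not show whether it stood above background in those groups, so no fold is given. Slc3a2, the heavy chain shared by the cystine and the large neutral amino acid importers, gave 11.68, 11.66 and 11.73 in SPIO, against 11.45, 11.56 and 11.53 in CON. Its rise was small but without overlap, at 0.17 ± 0.043 (adjusted p = 0.00508).

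Ddit4, which encodes REDD1, an inhibitor of the growth kinase complex mTORC1, had 7.52, 7.61 and 7.52 in SPIO, against 8.22, 8.1 and 8.28 in CON. This is a fall of 0.65 ± 0.058, or 1.57-fold (adjusted p = 3.98e-07).

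**Figure D2:**
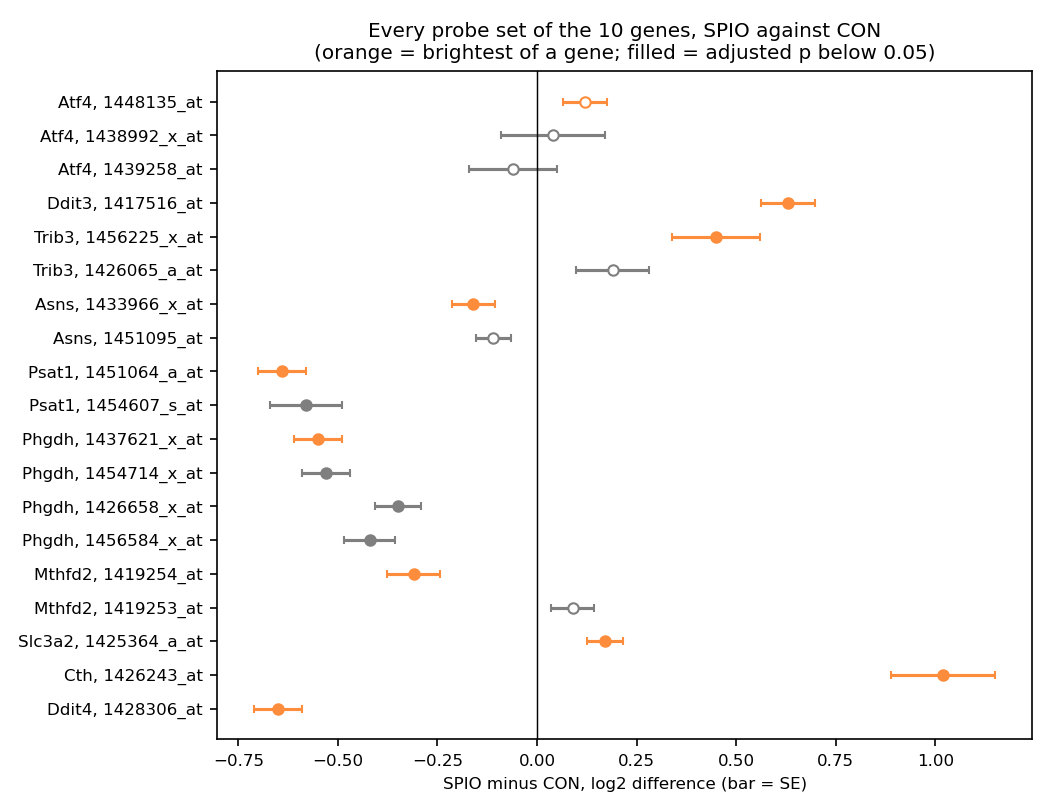
Log2 difference of SPIO minus CON at each of the 19 probe sets, with SE, from a model fitted to every probe set. All 6 probe sets of Psat1 and Phgdh lie left of zero, and the pair for Mthfd2 lies on opposite sides at -0.31 and 0.09.

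The comparison of SPIO-LPS with LPS asks the same among cultures that received LPS. The split seen without LPS was found here in the same direction for each called gene, in other arrays: Ddit3, Trib3, Cth and Slc3a2 rose, and Psat1, Phgdh, Mthfd2 and Ddit4 fell. With 8 of 10 called, beside 32.7% of all genes, 4 rose, beside 18.2%, and 4 fell, beside 14.6%. Atf4 and Asns were not called. Their differences were 0.07 ± 0.053 and -0.13 ± 0.053 (adjusted p = 0.392 and 0.0657). The second Atf4 probe set gave -0.22 ± 0.13, of the opposite sign and not called. Asns was called lower with a variance trend, without the dimmest 33.3% of genes, with cyclic loess scaling and without LPS replicate 3 (-0.13 to -0.19).

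Slc3a2 had 12.27, 12.23 and 12.27 in SPIO-LPS, against 11.74, 11.72 and 11.81 in LPS. Each SPIO-LPS array lay above every other array of the study, and the difference was 0.5 ± 0.043, or 1.41-fold (adjusted p = 2.31e-07). Cth gave 5.42, 5.8 and 5.65 in SPIO-LPS, against 4.97, 4.45 and 4.97 in LPS, all below 5. The rise was 0.83 ± 0.13 (adjusted p = 0.000158). Ddit3 stood at 8.15, 8.09 and 8.17 in SPIO-LPS, against 7.78, 7.78 and 7.9 in LPS. Its rise of 0.32 ± 0.066 (adjusted p = 0.0013) was without overlap. Trib3 had 6.31, 6.37 and 6.12 in SPIO-LPS, against 6.17, 5.81 and 5.69 in LPS. Here the arrays overlapped, with a difference of 0.38 ± 0.1 (adjusted p = 0.0115) that was not called without LPS replicate 2 or 3 or SPIO-LPS replicate 2 (0.33, 0.27 and 0.32).

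Psat1 had 8.05, 8.01 and 8.17 in SPIO-LPS, against 8.68, 8.5 and 8.62 in LPS, a fall of 0.52 ± 0.058 (adjusted p = 3.92e-06). Phgdh gave 8.39, 8.33 and 8.47 in SPIO-LPS, against 8.88, 8.9 and 8.87 in LPS, a fall of 0.49 ± 0.059 (adjusted p = 9.3e-06). Ddit4 stood at 8.81, 8.8 and 8.84 in SPIO-LPS, against 9.38, 9.2 and 9.33 in LPS. It too was lower on every array, by 0.49 ± 0.058 on the log2 scale (adjusted p = 8.11e-06). Mthfd2 fell by 0.36 ± 0.066 at its brighter probe set (adjusted p = 0.000542), while the dimmer gave -0.01 ± 0.054 and was not called.

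**Figure D3:**
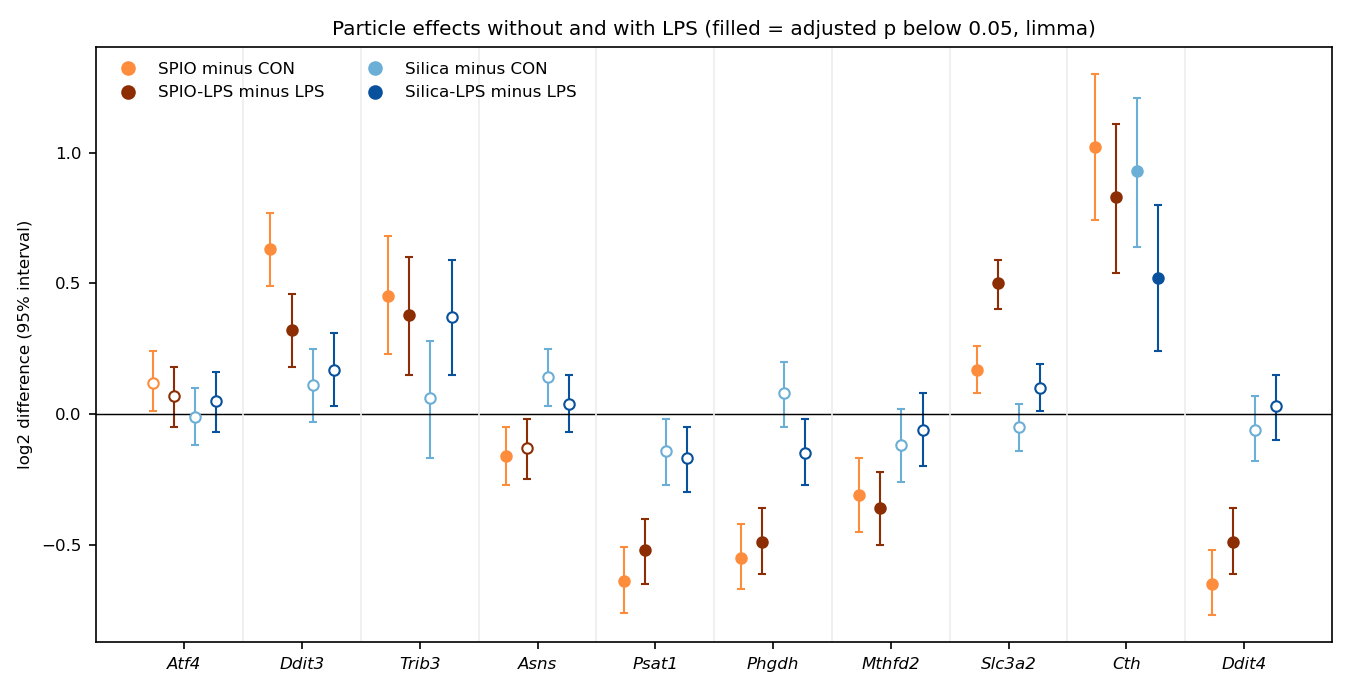
Log2 differences with 95% intervals for each particle, without LPS against CON and with LPS against LPS; filled points were called. Iron oxide points for Psat1, Phgdh and Ddit4 lie between -0.65 and -0.49. At the brightest probe set of each gene, silica was called for Cth alone, at 0.93 and 0.52.

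The comparisons of Silica with CON and of Silica-LPS with LPS ask what silica did, and they share their CON and LPS arrays with the iron oxide comparisons. Of the 10 genes, each at its brightest probe set, Cth rose in both and no other was called. That stood beside 4.02% of all genes called without LPS (2.45% higher, 1.57% lower) and 2.86% with it (1.89% higher, 0.976% lower). Cth had 5.34, 5.31 and 5.2 in Silica, against 4.34, 4.37 and 4.36 in CON, a rise of 0.93 ± 0.13 (adjusted p = 0.00102). Under LPS it gave 5.25, 5.27 and 5.43 in Silica-LPS, against 4.97, 4.45 and 4.97, all below 5, in LPS. That rise of 0.52 ± 0.13 was near the threshold (adjusted p = 0.0478) and was lost without LPS replicate 2, which holds the low value, where it was 0.35 (adjusted p = 0.176), and without any of the Silica-LPS arrays (0.46 to 0.56).

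The groups of some uncalled genes did not overlap, those of Asns and Psat1 without LPS, and those of Ddit3, Trib3, Psat1, Phgdh and Slc3a2 with it. With Cth that is 3 of 10 genes without LPS, beside 24.9% of all genes without overlap, and 6 of 10 with LPS, beside 21.9%. Trib3 gave 6.26, 6.27 and 6.24 in Silica-LPS, against 6.17, 5.81 and 5.69 in LPS, a difference of 0.37 ± 0.1 (adjusted p = 0.0763). It was called without LPS replicate 1 (0.51, adjusted p = 0.00787), with a variance trend (adjusted p = 0.0405), without the dimmest 33.3% of genes (adjusted p = 0.0431) and as the mean of its probe sets (0.36, adjusted p = 0.0163). For Asns the difference was 0.14 ± 0.053 in Silica against CON, with signals of 9.53, 9.41 and 9.43 in Silica, against 9.37, 9.32 and 9.26 in CON (adjusted p = 0.159). Psat1 stood at -0.14 ± 0.058 without LPS and -0.17 ± 0.058 with it (adjusted p = 0.212 and 0.132), and the second was called with cyclic loess scaling (-0.21, adjusted p = 0.0301). Phgdh with LPS, at -0.15 ± 0.059, was called as the mean of its probe sets (-0.19, adjusted p = 0.0176). In a fit of every probe set, the third of its probe sets was called at -0.28 ± 0.058 (adjusted p = 0.0168). That probe set also gave -0.28 ± 0.058 in SPIO-LPS against LPS. Its second and dimmest probe sets gave -0.13 ± 0.06 and -0.18 ± 0.064 in Silica-LPS against LPS, neither called. Fibroblast markers rose in 4 of 12 cases in Silica against CON, beside 2.45% of all genes. Their sums were 44641 to 47312 in Silica, against 41592 to 42224 in CON, and their part in these values was not tested. Atf4 stood at -0.01 ± 0.053 without LPS (95% interval -0.12 to 0.1) and 0.05 ± 0.053 with it (95% interval -0.07 to 0.16). Its second probe set gave 9.63, 9.7 and 9.8 in Silica, against 9.51, 9.38 and 9.17 in CON, without overlap. That difference of 0.36 ± 0.13 was not called (adjusted p = 0.143), and with LPS it was 0.09 ± 0.13.

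Iron oxide was also set directly against silica. Without LPS, 8 of 10 genes were called, beside 26.1% of all genes: 3 were higher in SPIO than in Silica, beside 14.6%, and 5 lower, beside 11.6%. Phgdh differed most, by -0.62 ± 0.059 (adjusted p = 1.08e-06), followed by Ddit4 at -0.59 ± 0.058, Ddit3 at 0.52 ± 0.066 and Psat1 at -0.49 ± 0.058. For Asns, which stood above CON in Silica and below it in SPIO, the difference of -0.3 ± 0.053 (adjusted p = 0.000507) was larger than either against CON. Its second probe set gave -0.19 ± 0.044, also called. Mthfd2 was called lower at -0.19 ± 0.066 (adjusted p = 0.0429), which its dimmer probe set did not share (-0.05 ± 0.054). Leaving out any SPIO array, or Silica replicate 1 or 2, also ended that call (-0.13 to -0.22). Trib3, at 0.4 ± 0.1, was not called at its dimmer probe set (0.07 ± 0.091) or without SPIO replicate 2 (0.33, adjusted p = 0.0555). Atf4, at 0.13 ± 0.053 (adjusted p = 0.0825), was called with a variance trend (adjusted p = 0.0236) and without the dimmest 33.3% of genes (adjusted p = 0.0458). Its second probe set gave -0.32 ± 0.13 (adjusted p = 0.0851), the opposite direction, and -0.31 ± 0.13 between SPIO-LPS and Silica-LPS (adjusted p = 0.0936), so no direction is given for Atf4 between the particles. For Cth the difference between the particles was 0.09 ± 0.13 and was not called, with a 95% interval of -0.19 to 0.37. Of the fibroblast markers 10 of 12 were lower in SPIO than in Silica, beside 11.6% of all genes. Their sums were 34841 to 35882 in SPIO, against 44641 to 47312 in Silica. Neutrophil markers were lower in 6 of 9 cases and higher in 1, beside 11.6% and 14.6% of all genes. With LPS 10 of 12 fibroblast and 6 of 9 neutrophil markers were lower too, beside 12.9%, and 1 neutrophil marker was higher, beside 12.2%. Sums of the fibroblast markers were 27859 to 28711 in SPIO-LPS, against 35548 to 35862 in Silica-LPS. The part of these cells in these results was not tested.

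With LPS, 6 of 10 were called between SPIO-LPS and Silica-LPS, beside 25.1% of all genes: 1 was higher, beside 12.2%, and 5 were lower, beside 12.9%. Slc3a2 was higher by 0.39 ± 0.043 (adjusted p = 4.86e-06), and Ddit4 was lower by 0.51 ± 0.058 on the log2 scale (adjusted p = 7.85e-06). Psat1, Phgdh, Mthfd2 and Asns were lower too, with differences of -0.35, -0.34, -0.3 and -0.17, of which that of Asns was not called without Silica-LPS replicate 1 or 3 or SPIO-LPS replicate 2 (-0.15 to -0.18). At the third of the Phgdh probe sets the difference was 0 ± 0.058. The dimmer probe set of Mthfd2 gave -0.13 and that of Asns -0.09, and neither was called. Ddit3 stood at 0.15 ± 0.066 (adjusted p = 0.11) and Trib3 at 0.01 ± 0.1.

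The comparison of LPS with CON gives the effect of LPS without a particle. Of the 10 genes, 7 were called, beside 58.2% of all genes: 5 rose, beside 22.2%, and 2 fell, beside 36.1%. With cyclic loess scaling between arrays, 6 rose and the other 4 were not called. That scaling moved the LPS difference of a gene by 0.15 in the median. Of 12 fibroblast markers 4 rose and 7 fell under LPS, and of 9 macrophage markers 2 rose and 6 fell, beside 22.2% and 36.1% of all genes. Fibroblast sums were 33740 to 35257 in LPS, against 41592 to 42224 in CON. Macrophage sums were 62160 to 62487 in LPS, against 57117 to 57810 in CON. The part of these cells, and of RNA quality, was not tested. Ddit4 had 9.38, 9.2 and 9.33 in LPS, against 8.22, 8.1 and 8.28 in CON, a rise of 1.1 ± 0.058, or 2.15-fold (adjusted p = 7.78e-11). Mthfd2 rose by 0.47 ± 0.066, with 0.53 ± 0.054 at its dimmer probe set, so that both called the rise.

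Atf4 gave 10.71, 10.73 and 10.82 in LPS, against 10.34, 10.28 and 10.49 in CON, a rise of 0.38 ± 0.053, or 1.3-fold (adjusted p = 1.17e-05). Its second probe set gave 0.65 ± 0.13 and its dimmest, with a mean signal of 4.27, 0.19 ± 0.11. With cyclic loess scaling the rise was 0.55 ± 0.05. Slc3a2 rose by 0.24 ± 0.043 (adjusted p = 0.000111). Cth rose by 0.44 ± 0.13 (adjusted p = 0.00946), though its LPS arrays were far apart and the call was lost without LPS replicate 3 (0.35, adjusted p = 0.0513). Its LPS arrays, like those of CON, lay below 5, where these data do not show whether it stood above background.

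Psat1 fell by 0.29 ± 0.058 under LPS (adjusted p = 0.000413), which its second probe set (-0.19) and cyclic loess scaling (-0.05) left uncalled. Asns stood at -0.13 ± 0.053 (adjusted p = 0.0482), a call at the threshold that turned to 0.08 with cyclic loess scaling and was lost without CON replicate 1 or 2 or LPS replicate 2 or 3 (-0.09 to -0.14). Ddit3 was not called, at 0.08 ± 0.066, but was called at 0.34 after cyclic loess. Trib3 stood at -0.2 ± 0.1 (adjusted p = 0.113) and was called lower without LPS replicate 1 (-0.34, adjusted p = 0.0033) and as the mean of its probe sets (-0.19, adjusted p = 0.0371). Phgdh stood at -0.11 ± 0.059, with -0.22 ± 0.06 at its second probe set, which was called. Its other probe sets gave 0.03 ± 0.058 and 0.08 ± 0.064, and cyclic loess turned the difference to 0.12 ± 0.054 (adjusted p = 0.0655), so no direction is given for Phgdh under LPS.

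**Figure D4:**
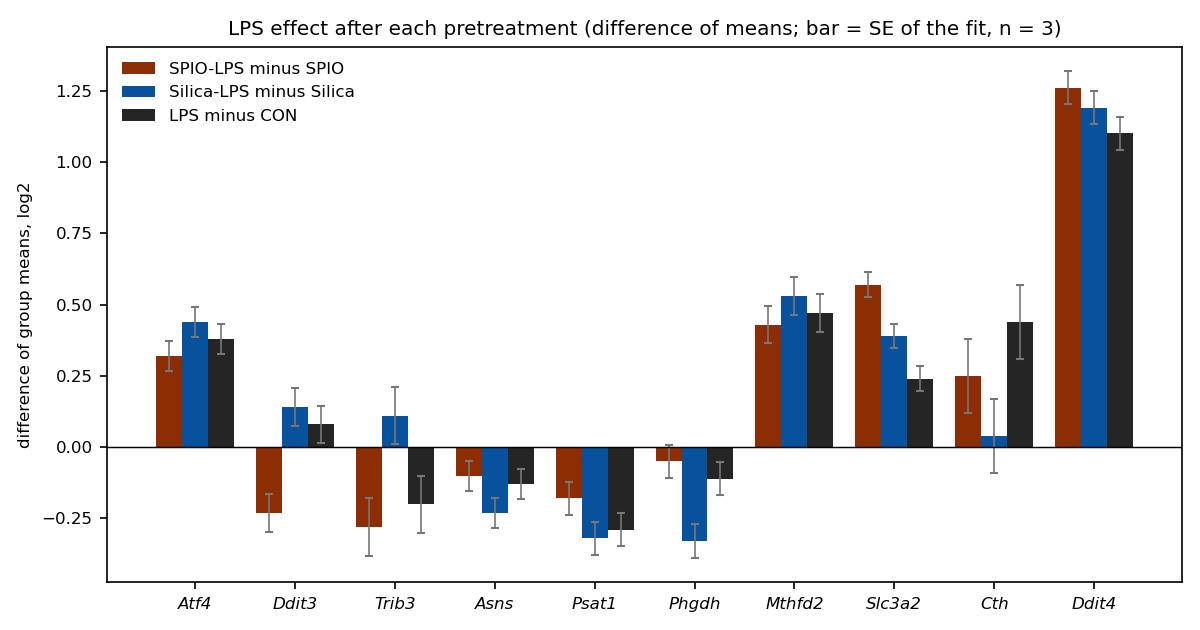
Difference of group means between cultures with and without LPS (log2), for SPIO-pretreated, silica-pretreated and plain cultures, with the SE of the model. The Slc3a2 bars stand at 0.57, 0.39 and 0.24 and the Ddit4 bars at 1.26, 1.19 and 1.1.

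Whether a particle altered the LPS effect was tested as an interaction. With iron oxide, 2 of 10 genes were called, beside 8.8% of all genes: 1 was higher, beside 3.73%, and 1 lower, beside 5.07%. Slc3a2 rose more under LPS after iron oxide, by 0.57, than without a particle, by 0.24, and the interaction was 0.32 ± 0.06 (adjusted p = 0.00234). For Ddit3 the LPS difference was -0.23 after iron oxide and 0.08 without a particle, an interaction of -0.31 ± 0.093 at the threshold (adjusted p = 0.0487). It was lost when any 1 of 10 arrays was left out, that is each array of the 4 groups other than CON replicate 3 and SPIO replicate 1 (-0.27 to -0.33, adjusted p up to 0.127). With silica, 0 of 10 were called by limma, beside 0.0161% of all genes (0.00807% higher and 0.00807% lower), and 3 passed 0.05 before adjustment, beside 6.8% of all genes. Those 3 were Phgdh (-0.22 ± 0.083), Slc3a2 (0.15 ± 0.06) and Cth (-0.41 ± 0.19), with adjusted p-values of 0.593, 0.645 and 0.726 in limma.

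Among themselves, Psat1 and Phgdh had the most similar profiles over the 6 groups, with a root mean square difference of 0.082 on the log2 scale after each gene was centred on its own mean. Ddit3 and Trib3 came next at 0.1, while Ddit4, whose nearest partner was Mthfd2 at 0.38, stood farthest from the others. These distances describe 6 group means that share arrays across genes. Over all genes, Atf4 was most like Atg16l1, Farsa and Ppp4r3a, at 0.023 to 0.024. Ddit3 was most like Tmem87a, Il3ra and Abhd5, at 0.039 to 0.053, and Trib3 most like Trim39, Vac14 and Stard4, at 0.049 to 0.058. Asns, whose means ranged over only 0.4, was most like Cbx7, Mboat2 and Myl12a.

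Other genes of the pathway moved unevenly after iron oxide. Of 14 measured transcription factors and feedback genes of the integrated stress response, 7 rose and 3 fell in SPIO against CON, with a median of 0.09 beside -0.01 over all genes, and 10 of 14 called beside 33.8%. The largest rises were those of Gadd45a, a growth arrest gene (1.07 ± 0.067), Atf3, a transcription factor induced by ATF4 (0.55 ± 0.052), and Ppp1r15a, whose product returns eIF2 to its unphosphorylated state (0.54 ± 0.059). In SPIO-LPS against LPS 4 rose and 2 fell, beside 18.2% and 14.6% of all genes. The largest changes were those of Ppp1r15a (1.46 ± 0.059), Nupr1 (-0.48 ± 0.054) and Ppp1r15b (-0.38 ± 0.046). Nupr1 had also fallen without LPS (-0.47 ± 0.054). Atf3 rose by 0.17 ± 0.052 with LPS, and Gadd45a was not called (-0.14 ± 0.067). The iron oxide interaction was called for Gadd45a (-1.21 ± 0.095), Ppp1r15a (0.92 ± 0.083) and Atf3 (-0.38 ± 0.073). Of the 14, 3 were higher and 4 lower in it, beside 3.73% and 5.07% of all genes. In Silica against CON 2 of the 14 rose, beside 2.45% of all genes: Chac1, which breaks down glutathione (0.61 ± 0.091), and Vldlr, a lipoprotein receptor (0.31 ± 0.084). Chac1 was also called higher in SPIO than in CON (0.42 ± 0.091) and in SPIO-LPS than in LPS (0.33 ± 0.091). Between SPIO and Silica it was not called (-0.2 ± 0.091). In Silica-LPS against LPS 2 rose and 0 fell, beside 1.89% and 0.976% of all genes: Vldlr (0.38 ± 0.084) and Ppp1r15a (0.29 ± 0.059). Under LPS alone 6 rose and 5 fell, beside 22.2% and 36.1% of all genes, with Atf3 at 2.4, Nupr1 at 2.13 and Ppp1r15a at 1.85.

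Among 10 measured amino acid transporters 1 rose and 1 fell in SPIO against CON, with a median of -0.06 beside -0.01, fewer than the 33.8% of all genes called. The rise was that of Slc7a11, the cystine-specific partner of Slc3a2, at 1.86 ± 0.14, and the fall that of Slc7a5, its partner for large neutral amino acids, at -0.31 ± 0.058. In SPIO-LPS against LPS 3 rose and 1 fell, beside 18.2% and 14.6% of all genes, with Slc7a11 at 1.42 ± 0.14 and Slc7a5 at -0.41 ± 0.058. Of 9 measured further genes of serine, glycine, folate and proline synthesis, 1 rose and 4 fell in SPIO against CON, beside 19.6% and 14.2% of all genes, with a median of -0.13. The largest falls there were those of Pck2 (-0.3 ± 0.087), Aldh18a1 (-0.29 ± 0.049) and Shmt1 (-0.24 ± 0.082). Psph, a further gene of serine synthesis, was not called in SPIO against CON (-0.04 ± 0.068, adjusted p = 0.698). It was not called in SPIO-LPS against LPS either (-0.11 ± 0.068, adjusted p = 0.25). In SPIO-LPS against LPS 2 rose and 4 fell, beside 18.2% and 14.6% of all genes. The largest changes were those of Gpt2, an alanine transaminase (0.98 ± 0.073), Aldh18a1 (-0.43 ± 0.049) and Shmt2 (-0.38 ± 0.071). Gpt2 had risen by 0.23 ± 0.073 without LPS, and its iron oxide interaction was called at 0.75 ± 0.1. LPS alone lowered Gpt2 (-1.03 ± 0.073 against CON). It was also called higher in Silica-LPS than in LPS (0.49 ± 0.073), and higher in SPIO-LPS than in Silica-LPS (0.49 ± 0.073).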

How the data were processed

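The deposited table holds log2 signals per probe set which, per the submitters' processing notes, the authors made with RMA; which program ran it, and how, is not given in the sources used here. Values are neither centred nor ratios, and no detection calls are used. The number of arrays limits the precision. Of 22626 probe sets besides controls, 20380 had 1 gene symbol, brought up to date through gene identifiers. Each gene was represented by its brightest probe set, by mean over all arrays. R 4.3.3 with limma 3.58.1 (lmFit, contrasts.fit, eBayes) fitted 1 mean per group to all 18 arrays, and p-values were adjusted by Benjamini-Hochberg over 12393 genes within each of the 9 contrasts. The procedure was tested on simulated data. The genes, pathway lists and marker lists were chosen with earlier results of these data known. At most 3 list genes per contrast, those with the largest called difference, are named as the largest changes. Some further list genes are given beside them, whether called or not. Synthetase symbols were matched to the older names of the table. Alternatives were the replicate number as a block, the compared arrays alone, removal of the dimmest 33.3% of genes, a variance trend with robust prior, other probe set summaries, cyclic loess and leaving out each array. Fitting every probe set was added after the data were seen. Figures were drawn with matplotlib 3.10.9.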

Additional observations from a re-analysis of the deposited data

Results flagged for a closer look

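The LPS effect on 2 of the 10 genes differed between iron oxide-pretreated and plain cultures by limma's interaction test. For Slc3a2 the interaction was 0.32, the signal rising by 0.57 with LPS after iron oxide and by 0.24 without a particle. For Ddit3 it was -0.31, with LPS differences of -0.23 after iron oxide and 0.08 without a particle. Adjusted p-values were 0.00234 and 0.0487, and across the array left-outs the second ranged up to 0.127.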

How the results depend on the processing

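With the replicate block, the compared arrays alone, the variance trend and removal of the dimmest 33.3% of genes, differences could not change, and only a call could move. For Ddit3, Slc3a2, Cth and Ddit4, with 1 probe set each, the other probe set summaries reused the same signals. Many of the values counted next were thus bound to keep their direction. Of 1281 recomputed differences of single genes, 1164 kept their direction and side of the threshold, 56 lost the call, 18 gained it and 43 turned sign, the added fit of every probe set not counted. Of the values that turned there or in that fit, those called as reported were Mthfd2 in SPIO against CON (0.09 with its next brightest probe set), Asns in LPS against CON (0.08 with cyclic loess) and Phgdh in SPIO-LPS against Silica-LPS (0 at the third of its probe sets), and none was called after turning. The count of called genes in Silica-LPS against LPS, 1, became 0 with the replicate block and with the compared arrays alone, 2 with the variance trend and with cyclic loess, 3 with the mean of probe sets, and 0 to 2 without single arrays. That of Silica against CON became 0 without the dimmest 33.3% of genes, which removes Cth. The iron oxide interaction count, 2, became 1 with the compared arrays alone and 1 to 2 without single arrays. Without single arrays the other counts were 5 to 8 (LPS against CON), 8 to 10 (SPIO against CON), 7 to 8 (SPIO-LPS against LPS), 6 to 8 (SPIO against Silica) and 5 to 6 (SPIO-LPS against Silica-LPS). The other settings gave 6 to 8, 6 to 10, 7 to 9, 6 to 9 and 4 to 6 in the same comparisons, the lowest counts of SPIO against CON, 6, and SPIO-LPS against Silica-LPS, 4, being those of the next brightest probe set. Over all genes, the calls for silica, 498 without and 355 with LPS, fell to 110 and 63 with the compared arrays alone and reached 850 and 577 with the variance trend; the dim filter gave 755 and 536, and single arrays left out gave 203 to 381 and 186 to 333. The silica interaction had 2 calls over all genes, 0 with the block or the compared arrays alone, 40 with the trend, 5 with the dim filter, 1 with mean probe sets and 0 to 2 without single arrays. With cyclic loess the silica calls were 254 higher and 263 lower, beside 304 and 194. The labels do not say that a replicate number marks a shared animal, batch or day, so the numbers were not used as pairs. Same-numbered arrays had a median correlation of deviations of -0.01 over 45 pairs, 8 above 0.1. For different-numbered arrays it was 0 over 90 pairs, 18 above 0.1. The block ended the calls of Asns in LPS against CON, Cth in Silica-LPS against LPS and Mthfd2 in SPIO against Silica. The causes of these changes were not tested.

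The next brightest probe set turned the sign for Atf4 in Silica against CON (0.36), SPIO-LPS against LPS (-0.22), SPIO against Silica (-0.32), SPIO-LPS against Silica-LPS (-0.31) and the silica interaction (-0.27). It also turned Psat1 (0.01), Phgdh (-0.12) and Mthfd2 (0.14) in Silica against CON, Mthfd2 in Silica-LPS against LPS (0.12) and the silica interaction (-0.02), and Trib3 (0.16) and Psat1 (-0.11) in the iron oxide interaction. The same probe sets gave the same values in the added fit of every probe set. In that fit the dimmest Atf4 probe set turned SPIO against CON (-0.06), Silica-LPS against LPS (-0.05), SPIO against Silica (-0.05) and the interactions with silica (-0.04) and iron oxide (0.16). The 2 dimmer Phgdh probe sets turned LPS against CON (0.03 and 0.08) and Silica against CON (-0.18 and -0.02), and 1 of them gave 0 in SPIO-LPS against Silica-LPS and the other -0.03 in the iron oxide interaction.

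The mean of probe sets turned Atf4 in Silica against CON (0.11), SPIO-LPS against LPS (-0.02), SPIO against Silica (-0.08), SPIO-LPS against Silica-LPS (-0.05) and the silica interaction (-0.08). It turned Phgdh (-0.06) and Mthfd2 (0.01) in Silica against CON, Mthfd2 in Silica-LPS against LPS (0.03), and Trib3 (0.04) and Psat1 (0) in the iron oxide interaction. Cyclic loess turned Phgdh in LPS against CON (0.12), Ddit4 in Silica-LPS against LPS (-0.01) and Atf4 in SPIO-LPS against Silica-LPS (0). Leaving out 1 array in turn turned these uncalled values in at least 1 case: Atf4 in Silica against CON (-0.06 to 0.05) and the silica interaction (0 to 0.1), Ddit3 (0 to 0.11) and Psat1 (-0.08 to 0.01) in the silica interaction, and Ddit4 in Silica-LPS against LPS (-0.03 to 0.07). The others were Trib3 in SPIO-LPS against Silica-LPS (-0.05 to 0.08), Cth in SPIO against Silica (-0.03 to 0.19), and Asns (-0.02 to 0.07), Mthfd2 (-0.1 to 0.02) and Trib3 (-0.18 to 0.06) in the iron oxide interaction.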

Other observations

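Of 16 measured aminoacyl-tRNA synthetases, many of which are ATF4 targets, 3 rose and 4 fell in SPIO against CON, beside 19.6% and 14.2% of all genes, with a median of -0.02 beside -0.01, and the largest changes were those of Vars (-0.33 ± 0.062), Eprs (0.21 ± 0.052) and Yars (-0.21 ± 0.051). With LPS, 1 rose and 0 fell in SPIO-LPS against LPS, beside 18.2% and 14.6% of all genes, the rise being that of Eprs (0.25 ± 0.052). Under LPS alone 3 rose and 8 fell, beside 22.2% and 36.1% of all genes, with Nars at -1 ± 0.036, Wars, an interferon-induced synthetase, at 0.97 ± 0.054 and Rars at 0.73 ± 0.048.

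Of 15 measured genes of the unfolded protein response of the endoplasmic reticulum, 6 rose and 1 fell in SPIO against CON, beside 19.6% and 14.2% of all genes, with a median of 0.04 beside -0.01, led by Sdf2l1 (0.65 ± 0.04), Ero1a (0.62 ± 0.055), a disulfide-forming oxidase, and Edem1 (0.51 ± 0.043), which takes part in the disposal of misfolded proteins. In SPIO-LPS against LPS 3 rose and 5 fell, beside 18.2% and 14.6% of all genes. The largest changes were those of Ero1a (0.66 ± 0.055), Herpud1 (-0.33 ± 0.065) and Xbp1 (-0.28 ± 0.061). Of 5 measured genes of the eIF2 kinases and their partners, 2 rose and 1 fell in SPIO against CON, beside 19.6% and 14.2% of all genes. Eif2ak4, whose product GCN2 senses uncharged tRNA, was higher in SPIO than in CON (0.78 ± 0.14). Eif2ak2, the kinase PKR for double-stranded RNA, was lower (-0.5 ± 0.11). Eif2ak3, the kinase PERK of the endoplasmic reticulum, was higher by 0.27 ± 0.1 (adjusted p = 0.0467). In SPIO-LPS against LPS 0 rose and 1 fell, beside 18.2% and 14.6% of all genes, the fall being that of Eif2ak2 (-0.69 ± 0.11). Eif2ak4 there stood at 0.13 ± 0.14 (adjusted p = 0.532) and Eif2ak3 at 0.08 ± 0.1 (adjusted p = 0.596). The iron oxide interaction of Eif2ak4 was called near the threshold, at -0.66 ± 0.19 (adjusted p = 0.0472). Under LPS alone the differences were -1.16 ± 0.14 for Eif2ak4, 2.66 ± 0.11 for Eif2ak2 and -1.95 ± 0.1 for Eif2ak3.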
